A study of Mus musculus with 8 samples.

Results

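The FOS, JUN and EGR families hold classical immediate early transcription factor genes. The set described here holds 10 genes, Fos, Fosb, Fosl1, Fosl2, Jun, Junb, Jund, Egr1, Egr2 and Egr3, out of 19023 genes tested. They were chosen by name, because TFII-I is known to act at the Fos promoter. The rule used no value of these arrays, but earlier results of these data were known when it was set. Together they have 16 probes on the array, of which 13 passed the filter on dim probes, and each of the 10 genes has at least 1 such probe. For 9 genes the reported probe was well above background on all 8 arrays, and for Egr3 it was so on 7 of 8.

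The cells were TEC100.4, an immortalized mouse line of cortical thymic epithelial origin, in which a mutant form of TFII-I (gene Gtf2i), a general and signal-responsive transcription factor, is switched on by doxycycline. One line carried the mutant β isoform and another the mutant δ isoform, and each was kept for 24 h with or without the drug. This gave 4 groups of 2 one-colour arrays: β with, β without, δ with and δ without doxycycline. The titles of the untreated samples name the mutant line, whereas their genotype field names the wild-type isoform as expressed, and the groups follow the titles. All 4 groups share the parental line and the inducible construct, the labels name 1 line per isoform, and no line free of the mutant was given the drug in the samples used here. An effect of doxycycline itself and one of the induced protein therefore cannot be told apart, nor can the isoform and other differences between the lines. No label says whether both arrays of a group stem from different cultures, and the p-values then describe variation among these samples alone, possibly technical.

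FOS and JUN proteins pair through leucine zippers to form the dimeric factor AP-1, which binds its target genes, and JUN proteins can also pair with each other. EGR proteins bind GC-rich sites through zinc fingers. Growth factors, stress and serum act through the ERK, JNK and p38 kinases to switch many, not all, of these genes on without new protein synthesis, usually briefly. At the Fos promoter, serum response factor, its ELK partners and CREB bind upstream of a TATA box. TFII-I was described as a factor that binds initiator and E-box elements of promoters.

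The sequence in front of Fos is shown because it is the promoter at which TFII-I is known to act, and those of Fosb, Jun and Junb are shown for comparison within the families. Each is the 150 bases before the RefSeq transcription start in GRCm38.p6, read 5′ to 3′ on the gene's strand. They lie at chr12:85473740-85473889 (plus strand) for Fos, chr7:19310046-19310195 (minus strand) for Fosb, chr4:95052223-95052372 (minus strand) for Jun and chr8:84978749-84978898 (minus strand) for Junb. Capitals mark matches of TGACG, the core of the cyclic AMP response element, of the E-box CANNTG and of TATAAA.
Fos: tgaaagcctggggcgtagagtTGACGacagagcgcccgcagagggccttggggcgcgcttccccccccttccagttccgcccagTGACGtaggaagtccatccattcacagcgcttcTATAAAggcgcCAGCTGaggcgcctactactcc
Fosb: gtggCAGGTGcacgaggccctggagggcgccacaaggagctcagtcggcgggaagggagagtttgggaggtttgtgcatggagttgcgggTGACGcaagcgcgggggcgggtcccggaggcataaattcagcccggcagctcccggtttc
Jun: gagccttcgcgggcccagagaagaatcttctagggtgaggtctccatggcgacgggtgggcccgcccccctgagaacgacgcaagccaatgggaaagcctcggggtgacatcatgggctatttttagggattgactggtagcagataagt
Junb: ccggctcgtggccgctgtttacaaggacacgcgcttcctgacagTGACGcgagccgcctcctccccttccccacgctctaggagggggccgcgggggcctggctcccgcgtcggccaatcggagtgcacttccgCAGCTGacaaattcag

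Fos carried TGACG at 129 to 125 and at 66 to 62 bases before the start, TATAAA at 33 to 28 and E-boxes at 196 to 191 and 22 to 17. The RefSeq promoter windows searched here covered 7 of the 10 genes, and nothing can be said of Fosl1, Egr1 and Egr3. A chromosome left out of the member search stayed in the share over all windows. Over the 250 bases before the start and on both strands, TGACG was found in 4 of these 7 genes, Fos, Fosb, Junb and Egr2, against 17.8% of 32851 promoter windows of the mouse. TATAAA was found in Fos alone of the 7 and in 12.4% of windows. CANNTG, a palindrome, occurred in 6 of 7 genes and 66.2% of windows, CCAAT in 3 of 7 and 33.8%, and the AP-1 site TGACTCA in 0 of 7 and 4.46%. A CArG box, the element bound by serum response factor, lay within this window in Egr2 alone of the 7 and in 1.47% of windows. Egr2 has 5 annotated starts and so 5 windows, which gives it more sequence than the others, and in it an E-box overlaps a TGACG. These matches describe letters, not bound sites, and sequence further upstream was not searched.

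Probes well above background numbered 43424 to 45156 on the treated and 39578 to 40759 on the untreated arrays. Treated arrays filled row 1 and untreated arrays row 2 of the same slide, so slide row and treatment cannot be told apart. The β arrays filled columns 1 and 2 and the δ arrays columns 3 and 4, so slide column and line cannot be told apart either. When each array was divided into 1008 tiles of 8 × 8 spots, 91 tiles of the untreated δ replicate 1 stood off their level elsewhere by a median of more than 0.3 (log2), and 3 or fewer did on each other array. Of the 16 member probes only the second Jund probe lay in such a tile. The brightest Gtf2i probe read 4.58 and 4.66 with and 4.39 and 4.63 without doxycycline in the β line, and 5.28 and 5.26 with and 5.29 and 5.07 without it in the δ line. A second, dimmer probe read -1.05 and -1.01 with and -2.13 and -2.56 without the drug in the β line, where the groups did not overlap, and -1.80 and -1.53 with and -1.67 and -1.93 without it in the δ line, where they did. The third read -0.10 and -0.14 with and -0.22 and -0.32 without it in the β line, and 0.43 and 0.36 with and 0.40 and 0.28 without it in the δ line. Whether any of the 3 reads the mutant transcript is not known here. Of 13 thymic epithelial markers 8 passed the filter, among them Krt8 and Krt14, whereas Psmb11, Enpep, Cd83, Epcam and Cdh1 did not. All 7 fibroblast and mesenchyme markers, 7 of 10 thymocyte markers and 3 of 4 macrophage markers passed it too. The summed level of the mesenchyme list lay between 9.41 and 9.67 on the 8 arrays, with 9.54 or more on the treated and 9.57 or less on the untreated arrays, and its part in the results below was not tested.

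**Figure D1:**
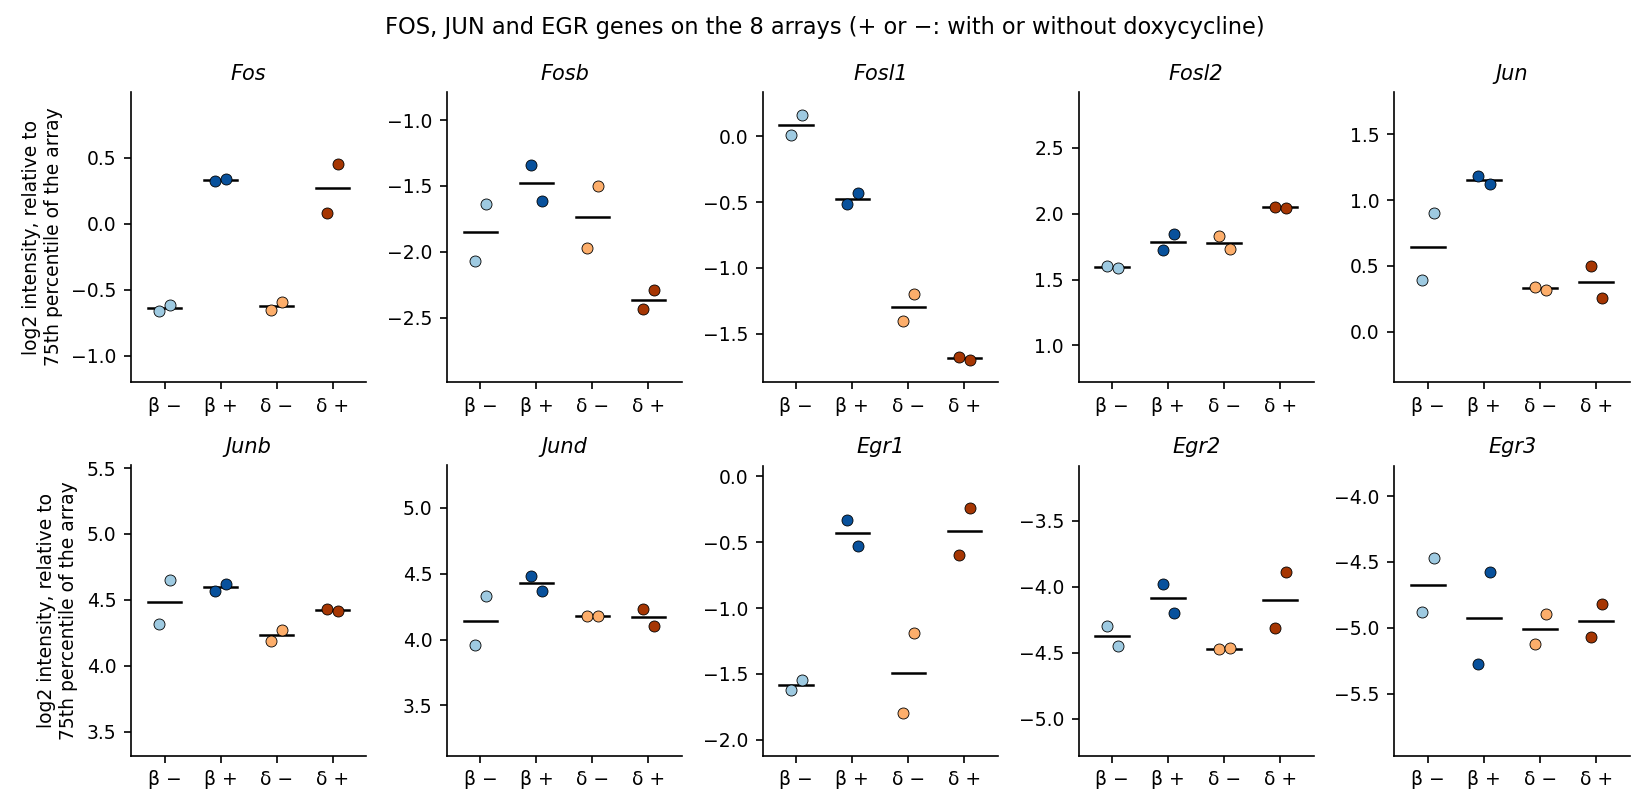
Level of each gene on each array, as log2 intensity relative to the 75th percentile of the array, by line (β or δ) and doxycycline (+ or −). Points are single arrays, bars are means of 2, and every panel spans the same log2 range at its own offset; for Fos and Egr1 all 4 treated arrays lie above all 4 untreated arrays, and for Fosl1 all 4 δ arrays lie below all 4 β arrays.

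The first question was whether the FOS, JUN and EGR genes differed with doxycycline in both lines. Fos and Egr1 were about 2-fold higher with the drug, with like estimates in the β and the δ line, and Fosl1 was lower in both. Averaged over the lines, these were 3 of the 10 genes that passed the test (limma, Benjamini-Hochberg adjusted p under 0.05), 2 higher and 1 lower, against 3.12% of all 19023 genes in either direction, 1.53% higher and 1.58% lower. The median difference of the 10 genes was 0.19 on the log2 scale, against 0.02 over all genes. The drug separated the 4 treated from the 4 untreated arrays without overlap in 2 members, both upward, while 4.06% of all genes lay upward in this way.

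Fos, the founding member of its family and a partner of all JUN proteins, read 0.32 and 0.34 in the β line with doxycycline and -0.66 and -0.62 without it, as log2 intensity relative to the 75th percentile of the array. In the δ line it read 0.08 and 0.46 with and -0.66 and -0.60 without the drug. Every treated array thus lay above every untreated array, and the untreated arrays of both lines lay close together. The difference was 0.97 ± 0.13 (SE) in the β line, a 1.96-fold rise whose adjusted p of 0.0569 missed the threshold, and 0.90 ± 0.13 in the δ line (1.86-fold, adjusted p = 0.0978). Over both lines Fos rose 1.91-fold (log2 difference 0.93 ± 0.10, 95% interval 0.70 to 1.16, n = 4 and 4, limma adjusted p = 0.0147). The lines' responses differed by -0.07, with a 95% interval from -0.53 to 0.39. Local brightness around the Fos spot deviated by -0.14 to 0.16 on the 8 arrays, and its part in the difference was not tested.

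Egr1, a zinc finger factor induced by many of the stimuli that induce Fos, read -0.33 and -0.53 with and -1.62 and -1.55 without doxycycline in the β line. The δ values were -0.60 and -0.24 with and -1.79 and -1.19 without the drug. Again every treated array lay above every untreated one, although the 2 untreated δ arrays lay further apart than those of any other group for this gene (SD 0.43). The difference was 1.16 ± 0.22 in the β line (2.23-fold, adjusted p = 0.0857) and 1.07 ± 0.22 in the δ line (2.11-fold, adjusted p = 0.173). Over both lines Egr1 rose 2.17-fold (1.12 ± 0.16, 95% interval 0.73 to 1.499, limma adjusted p = 0.0309), and the responses of the lines differed by -0.08 (95% interval -0.85 to 0.69). Few genes rose as much in both lines: 42 of 19023 genes (0.221%) had a rise at least that of Fos in each line. For Egr1 the count was 22 (0.116%). Both counts include the gene itself, and falls of this size were not counted.

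Fosl1 encodes FRA-1, a FOS protein without the strong activation domain of FOS. It read -0.52 and -0.43 with and 0.0048 and 0.16 without doxycycline in the β line, and -1.68 and -1.69 with and -1.40 and -1.19 without it in the δ line. Within each line both treated arrays lay below both untreated arrays, and the lines did not overlap. Over both lines Fosl1 fell 1.39-fold (-0.47 ± 0.08, limma adjusted p = 0.0407), with -0.56 ± 0.11 in the β line (adjusted p = 0.0889) and -0.39 ± 0.11 in the δ line (adjusted p = 0.257). Its estimates and those of Fos had opposite signs in both lines.

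Leaving out single arrays ended these 3 calls. Fos did not pass on leaving out either treated β array, either treated δ array or the untreated β replicate 1 (limma adjusted p between 0.0553 and 0.0814, log2 difference between 0.84 and 1.03). Egr1 did not pass on leaving out any one of these arrays or the untreated β replicate 2 (between 0.0701 and 0.158), and Fosl1 did not on leaving out any one of the same 6 arrays (between 0.0728 and 0.203). Over all 18 alternatives Fos passed in 12, Egr1 in 11 and Fosl1 in 10, with the direction kept in each. Their adjusted p ranged from 0.00399 to 0.121, from 0.00158 to 0.158 and from 0.0238 to 0.203.

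**Figure D2:**
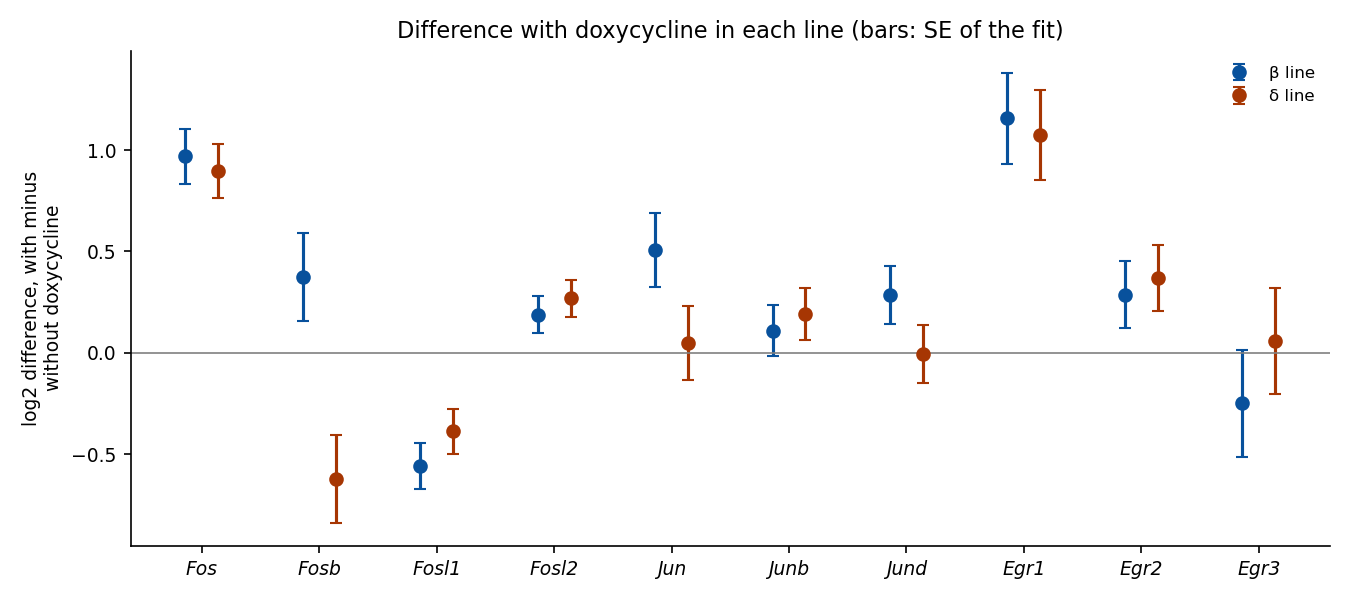
Log2 difference with minus without doxycycline in the β line (blue) and the δ line (red), with the SE of the fit as bars, for the 10 genes. Fos (0.97 and 0.90) and Egr1 (1.16 and 1.07) lie above zero and Fosl1 (-0.56 and -0.39) below zero in both lines, whereas Fosb lies at 0.37 in the β line and at -0.62 in the δ line.

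Within a single line limma called 0 of the 10 genes in the β line, where 0.247% of all genes passed, and 0 in the δ line, where 0.0736% did. At an unadjusted p under 0.05 by limma the counts were 4 and 5 members, against 3464 and 2856 of all 19023 genes. Without the probes in deviant tiles Fos passed in the β line (adjusted p = 0.0369, where 1.5% of genes passed), and on leaving out either untreated δ array both Fos (0.0467) and Egr1 (0.0411) did, with 157 genes called higher and 88 lower there in place of 22 and 25. Over the alternatives these 2 genes had adjusted p between 0.031 and 0.246 and between 0.0411 and 0.266 there. In the δ line both passed without the untreated δ replicate 2 (0.0259 and 0.0064, over alternatives up to 0.553 and 0.731), which leaves the array with the deviant tiles as the lone untreated δ array. With replicate 2 left out, 1340 of the 19023 genes were called higher and 281 lower in the δ line, in place of 4 and 10. By position alone, the 2 treated arrays were both above the 2 untreated ones for 7 members and both below for 1 in the β line, against 26.6% and 20.3% of all genes. In the δ line the counts were 5 above and 2 below, against 30.4% and 27.6%.

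Of the other FOS genes, Fosl2, which encodes FRA-2, read 1.72 and 1.85 with and 1.60 and 1.59 without doxycycline in the β line, and 2.05 and 2.04 with and 1.83 and 1.73 without it in the δ line. The treated arrays were the higher ones within each line, but the difference over both lines, 0.23 ± 0.06, did not pass (limma adjusted p = 0.117). Its second probe gave 0.09 (adjusted p = 0.497 over probes). Fosb, which like FOS carries an activation domain, read -1.34 and -1.62 with and -2.07 and -1.64 without the drug in the β line, and -2.43 and -2.29 with and -1.97 and -1.504 without it in the δ line. The treated arrays were higher in the β line, where 1 treated array barely exceeded 1 untreated array, and lower in the δ line. Neither difference passed (0.37 ± 0.22, adjusted p = 0.431, and -0.62 ± 0.22, adjusted p = 0.2997). The second Fosb probe was well above background on 2 of 8 arrays and was not tested.

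Of the JUN genes, 0 of 3 passed with the drug over both lines by limma, against 3.12% of all genes. At an unadjusted p under 0.05 it was also 0 of 3, against 4274 of all 19023 genes. With 3 genes, these counts say nothing particular about the JUN genes. Jun, which can act as a homodimer as well as with FOS, read 1.18 and 1.12 with and 0.39 and 0.90 without doxycycline in the β line, and 0.50 and 0.25 with and 0.34 and 0.32 without it in the δ line. The treated β values lay above both untreated arrays while the δ values straddled them, with differences of 0.51 ± 0.18 (limma adjusted p = 0.221) and 0.05 ± 0.18 (adjusted p = 0.916). The difference between these, -0.46, had a 95% interval from -1.08 to 0.17. Junb, a weaker activator than JUN that can oppose it, read 4.57 and 4.62 with and 4.32 and 4.65 without the drug in the β line, and 4.43 and 4.41 with and 4.19 and 4.28 without it in the δ line. The groups overlapped in the β line only, and the mean difference of 0.15 (95% interval -0.07 to 0.37) did not pass. The second Junb probe gave a mean difference of -0.0021.

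Jund, the JUN gene usually described as the steadily expressed one, read 4.48 and 4.37 with and 3.96 and 4.33 without doxycycline in the β line. The δ values were 4.23 and 4.10 with and 4.18 and 4.18 without it. The δ groups overlapped, and the mean difference was 0.14 (95% interval -0.11 to 0.38, limma adjusted p = 0.459). The second Jund probe read between 4.12 and 4.49 on 7 arrays but -6.85 on the untreated δ replicate 1, where the tile around its spot deviated by -3.86, and its δ value is not used here. Egr2 read -3.98 and -4.20 with and -4.30 and -4.45 without the drug in the β line, and -4.31 and -3.89 with and -4.47 and -4.47 without it in the δ line. The treated arrays were the higher ones within each line, and the mean difference of 0.33 (95% interval 0.05 to 0.61) did not pass (adjusted p = 0.172). Egr3 read from -5.27 to -4.47 over the 8 arrays with all groups overlapping by treatment, and its mean difference was -0.10 (adjusted p = 0.787). The other 2 Egr3 probes were well above background on 2 and 0 arrays.

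**Figure D3:**
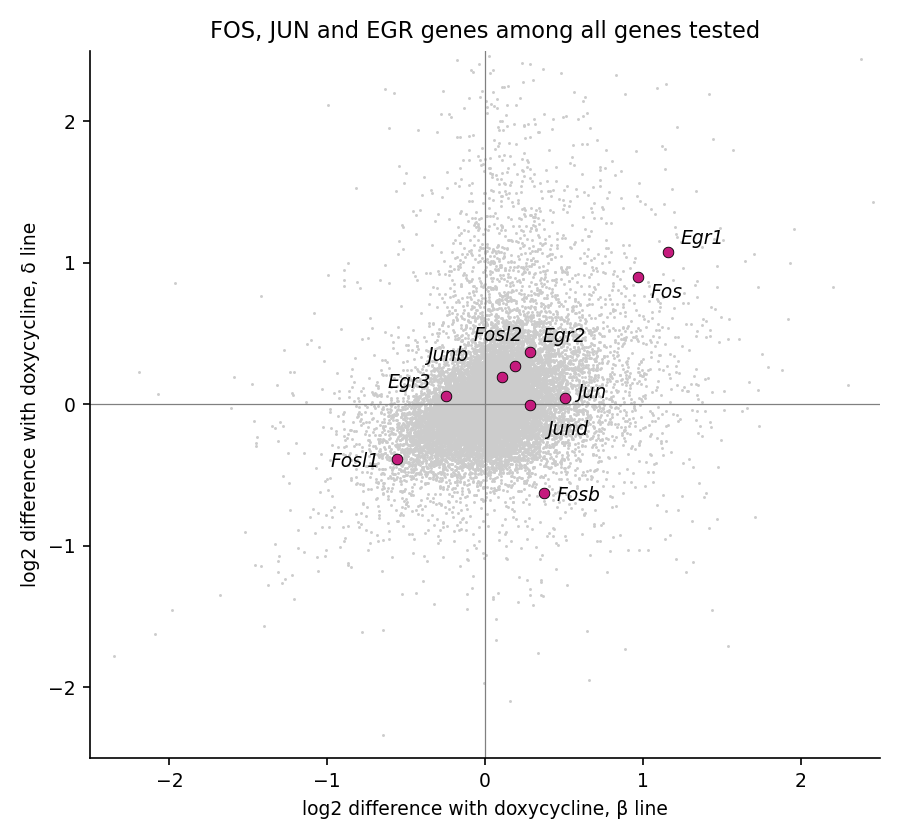
Log2 difference with doxycycline in the β line (horizontal) against the δ line (vertical) for 18894 genes (grey), with the 10 FOS, JUN and EGR genes in colour; 129 genes lie beyond the axes at 2.5. Fos and Egr1 lie at the upper right, outside the dense centre, Fosl1 at the lower left and Fosb at the lower right.

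The second question was whether the lines differed from each other. Without doxycycline 1 member passed, Fosl1, lower in the δ line, against 13.2% of all genes in either direction (7.93% higher and 5.28% lower). With the drug 3 members passed, all lower in the δ line (Fosl1, Jun and Fosb), against 15.3% of all genes in either direction (9.75% higher and 5.51% lower). Without the drug the members' share is near that of all genes and says nothing particular about them. Both untreated δ arrays lay above both untreated β arrays for 1 member and below for 5, where 29% and 23.9% of all genes did, and with the drug the counts were again 1 and 5, against 35.4% and 33.1%. These comparisons share their arrays with the doxycycline comparisons, and in them line and slide column cannot be told apart.

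Fosl1 was 2.60-fold lower in the δ line without doxycycline (-1.38 ± 0.11, limma adjusted p = 0.000872) and 2.31-fold lower with it (-1.21 ± 0.11, adjusted p = 0.00165). It passed in 18 of 18 alternatives in both comparisons, with adjusted p up to 0.028 and 0.024. It was the only member in which all 4 δ arrays lay below all 4 β arrays, as 10.5% of all genes did. Jun was 1.71-fold lower in the δ line with the drug (-0.77 ± 0.18, adjusted p = 0.039), while without it the value of -0.32 ± 0.18 did not pass (adjusted p = 0.311). Fosb was 1.84-fold lower in the δ line with the drug (-0.88 ± 0.22, adjusted p = 0.0449), and without it the lines' arrays overlapped (0.11 ± 0.22, adjusted p = 0.776). Jun and Fosb did not pass on leaving out any one of the 4 treated arrays (adjusted p between 0.121 and 0.206 for Jun and between 0.0983 and 0.233 for Fosb), and passed in 12 and 11 of 18 alternatives (adjusted p from 0.0157 to 0.206 and from 0.0161 to 0.233).

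The Fos and Egr1 levels of the lines lay close together, at 0.01 ± 0.13 and 0.09 ± 0.22 (δ minus β) without the drug and -0.06 ± 0.13 and 0.0090 ± 0.22 with it. The 95% intervals with the drug ran from -0.39 to 0.27 for Fos and from -0.53 to 0.55 for Egr1, so the data leave room for differences of this size. By the reported probes, Fosl2 was the one member whose δ arrays were above the β arrays both without (0.18 ± 0.09) and with the drug (0.27 ± 0.09). Neither value passed (limma adjusted p = 0.254 and 0.108). The second Fosl2 probe gave 0.03 without and -0.06 with the drug, and the lines' arrays overlapped in both. The β and δ responses to doxycycline differed significantly in 0 members by limma, where 0.00526% of all genes passed, and Fosb alone had an unadjusted p under 0.05, as 1433 of the 19023 genes did.

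**Figure D4:**
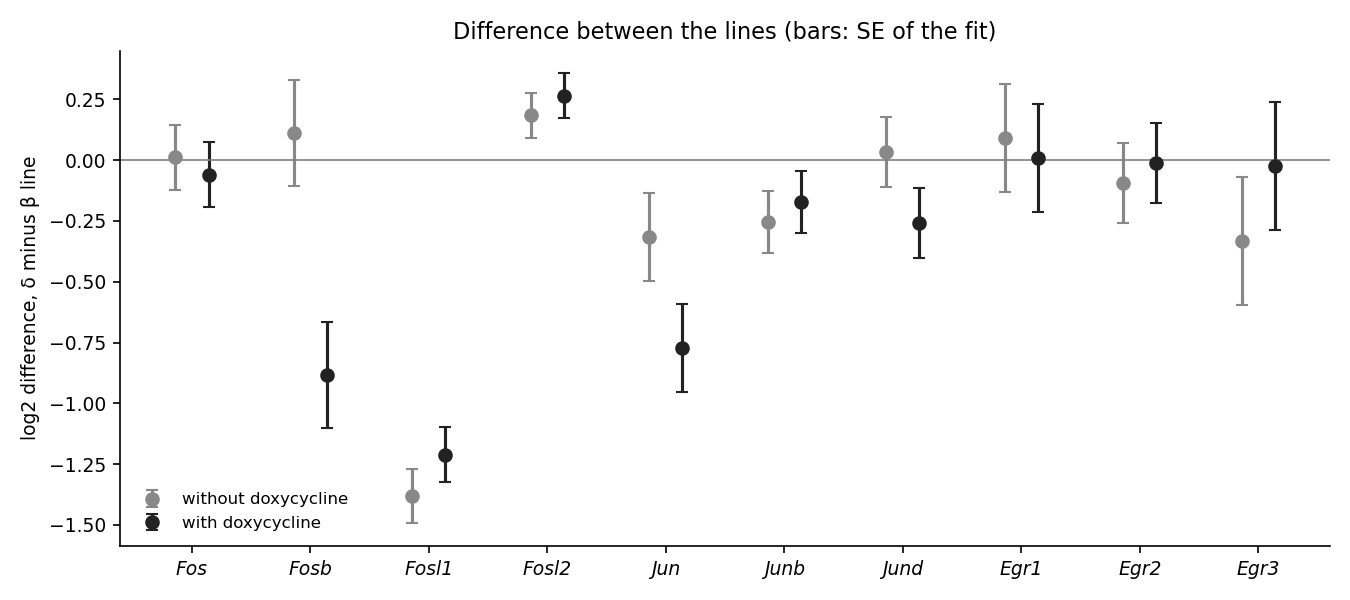
Log2 difference of the δ minus the β line without (grey) and with (black) doxycycline, with the SE of the fit as bars. Fosl1 lies at -1.38 and -1.21, and Jun and Fosb lie at -0.77 and -0.88 with the drug.

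The arrays' profiles can also be compared between genes. Over the 8 arrays Fos and Egr1 had a Pearson correlation of 0.967, which gave Egr1 rank 7 among 17796 genes by likeness to Fos, and Fos rank 4 by likeness to Egr1. The genes most like Fos were Gm32973 (0.989), Vmn2r60 (0.987) and Trip4 (0.980), and those most like Egr1 were Olfr713 (0.977), 4930474M22Rik (0.973) and Trip4 (0.970). Fosl1 followed the keratin gene Krt19 (0.999), the fibrillin gene Fbn1 (0.996) and Thsd1 (0.996). Those most like Jun were Hsf2 (0.969) and the tRNA synthetase genes Sars (0.965) and Gars (0.960), and those most like Fosb were 1700122O11Rik (0.992), the claudin gene Cldn6 (0.985) and Olfr835 (0.979). With 8 arrays in 4 groups that share scaling and slide rows, these are descriptions only.

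The genes around the immediate early response were listed by role. Of 10 tested bZIP partners of FOS and JUN, 0 passed with doxycycline over both lines by limma, against 3.12% of all genes. Between the lines 2 were lower in the δ line without the drug, where 5.28% of all genes were. With it 3 were lower and 2 higher, against 5.51% and 9.75% of all genes. Atf3, a stress-induced partner of JUN, was 2.38-fold lower in the δ line without doxycycline (-1.25 ± 0.12, limma adjusted p = 0.00154) and 2.25-fold lower with it (-1.17 ± 0.12). It read -1.32 and -1.17 on the untreated β and -2.55 and -2.45 on the untreated δ arrays, with no overlap. Maff, a small MAF protein, was lower in both comparisons (-0.68 and -0.53), and with the drug Mafk was lower (-0.59) and Mafg higher (0.44). Maff did not pass in the first comparison on leaving out either treated δ array, the untreated β replicate 2 or the untreated δ replicate 1 (adjusted p between 0.0622 and 0.0676). With the drug, Maff, Mafk and Mafg did not pass on leaving out any one of the 4 treated arrays (between 0.0625 and 0.24), and Maff also on leaving out either untreated δ array (0.0533).

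Factors of the Fos promoter, such as serum response factor and its partners, gave 0 calls among 11 with doxycycline over both lines. Of all genes 3.12% passed there, so the count says nothing particular about these factors. Their median was -0.09 against 0.02 for all genes. Between the lines without the drug 1 was lower and 2 were higher in the δ line, against 5.28% and 7.93% of all genes. Elk3, an ETS repressor that binds with serum response factor, was 2.02-fold lower in the δ line without doxycycline (-1.02 ± 0.09, limma adjusted p = 0.00133) and 1.79-fold lower with it (-0.84 ± 0.09). It passed in 18 of 18 alternatives in both. Stat3 was higher without the drug (0.62 ± 0.15, adjusted p = 0.0464), but passed in only 8 of 18 alternatives and not on leaving out either treated δ array or any one of the untreated arrays (between 0.058 and 0.169). Mrtfb, a coactivator of serum response factor, was higher in both (0.41 and 0.58), but its mean over several probes gave -7e-04 and -0.04, and the call without the drug ended on leaving out any one of the 8 arrays (adjusted p between 0.0556 and 0.161). With the drug it ended when the treated β replicate 1 or 1 of the treated δ arrays was left out (between 0.0714 and 0.13). Of the EGR relatives and NAB corepressors, Wt1, a zinc finger factor related to EGR1, was higher in the δ line with the drug (0.59 ± 0.10, adjusted p = 0.0147). It did not pass on leaving out any one of the 4 treated arrays (between 0.0559 and 0.136). With doxycycline over both lines 0 of 2 tested genes of this list passed, against 3.12% of all genes.

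Among 25 other immediate early genes the median difference with doxycycline over both lines was 0.15, with 18 above zero. Of these 25 genes 1 passed lower and 0 higher, against 1.58% and 1.53% of all genes. Myc, a regulator of growth and proliferation, fell 1.30-fold (-0.38 ± 0.06, limma adjusted p = 0.0387). It read -0.30 and -0.29 with and 0.13 and 0.05 without the drug in the β line and -1.01 and -1.101 with and -0.65 and -0.71 without it in the δ line, without overlap within a line. It passed in 7 of 18 alternatives and not on leaving out any one of the arrays other than the untreated δ replicate 2 (between 0.0609 and 0.213). As a mean over its probes, the Myc difference was smaller and did not pass (-0.19, limma adjusted p = 0.127). Dusp1, a phosphatase of JNK and p38 induced together with Fos in many cells, had a difference of 0.58 ± 0.11 that just missed the threshold (adjusted p = 0.0502, over alternatives 0.0284 to 0.234) and passed without the probes in deviant tiles (0.0329). Between the lines Myc was 1.71-fold lower in the δ line without doxycycline (-0.77 ± 0.09, adjusted p = 0.00336) and 1.69-fold lower with it (-0.76 ± 0.09). Ccn2, a matricellular target of YAP, was lower (-0.66 and -0.81) and the RNA decay factor Zfp36l1 higher (0.77 and 0.76) in both, and Gadd45b was lower with the drug (-0.75). Without the treated δ replicate 2, Myc with the drug did not pass (adjusted p = 0.0536), and Ccn2 did not on leaving out either treated δ array (0.0513 and 0.0556). Zfp36l1 and Gadd45b with the drug did not pass on leaving out any one of the treated arrays (between 0.058 and 0.144), nor did Zfp36l1 in untreated cells on leaving out either treated δ array or the untreated δ replicate 1 (between 0.0518 and 0.0545). The mean over its probes gave Zfp36l1 0.34 without and 0.11 with the drug.

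The kinases and feedback genes of the pathway are set against all genes, of which 3.12% passed with doxycycline over both lines. Between the lines 13.2% of all genes passed without and 15.3% with the drug. Of 12 ERK, JNK and p38 pathway kinases 1 passed with doxycycline, Rps6ka1, an ERK-activated kinase, which fell 1.34-fold (-0.42 ± 0.06, limma adjusted p = 0.0332). Mapk8, which encodes JNK1, had a difference of 0.36 ± 0.07 (adjusted p = 0.0618, over alternatives 0.0277 to 0.257). Rps6ka5 was higher in the δ line with the drug (0.48 ± 0.11, adjusted p = 0.0353). As a mean over its probes, its difference was 0.28 and did not pass (limma adjusted p = 0.17). Of 12 genes that ERK signalling induces and that limit or report it, Etv4, an ETS factor, fell 1.52-fold with the drug (-0.60 ± 0.07, adjusted p = 0.0223) and Dusp2, a nuclear phosphatase of ERK, rose 1.39-fold (0.48 ± 0.07, adjusted p = 0.0355). Dusp2 was 2.05-fold higher in the δ line without and 2.33-fold higher with the drug, Etv4 was lower in both (-0.62 and -0.60), and Dusp6, the cytoplasmic ERK phosphatase, was lower without the drug (-0.47 ± 0.10, adjusted p = 0.035). The doxycycline calls of Rps6ka1 and Dusp2 ended on leaving out any one of the arrays other than the untreated δ replicate 2, and that of Etv4 on leaving out any one of the treated and untreated β arrays or of the treated δ arrays (adjusted p between 0.052 and 0.193 for the 3 genes). Dusp2 between the lines passed in 18 of 18 alternatives. Etv4 between the lines did not pass without the untreated β replicate 2 (0.0535) or the untreated δ replicate 1 (0.058) in the first comparison, nor in the second when the treated β replicate 1 or 1 of the treated δ arrays was left out (between 0.0822 and 0.135). Rps6ka5 did not on leaving out any one of the treated arrays (between 0.0986 and 0.234), and Dusp6 kept its call on leaving out the untreated δ replicate 1 but no other array (otherwise between 0.0641 and 0.099).

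Of 18 tested genes known as targets of AP-1 or EGR factors, 0 passed higher and 1 lower with doxycycline over both lines by limma. Of all genes 1.53% and 1.58% did, and the median difference of the targets was -0.17 against 0.02 over all genes. The one that passed was Spp1, which encodes osteopontin, and it fell 1.36-fold (-0.45 ± 0.07, limma adjusted p = 0.0336), in 9 of 18 alternatives and not on leaving out any one of the treated or the untreated β arrays (between 0.0609 and 0.189). Between the lines 7 targets were lower and 1 was higher in the δ line without doxycycline, against 5.28% and 7.93% of all genes. The same counts held with the drug, against 5.51% and 9.75%, with 6 lower there without the probes in deviant tiles. Plau, the urokinase gene, was 3.52-fold lower without (-1.82 ± 0.16, adjusted p = 0.00123) and 3.87-fold lower with the drug (-1.95 ± 0.16). It read -1.29 and -1.498 on the untreated β arrays and -3.05 and -3.36 on the untreated δ arrays. Spp1 was 3.38-fold and 3.25-fold lower, and Hbegf, a ligand of the EGF receptor, 2.57-fold and 3.01-fold lower. These 3 genes kept their calls in 18 of 18 alternatives, except Hbegf without the drug (17 of 18, 0.0556 when only the arrays compared were fitted). Hmga2, a chromatin protein, was higher (1.198 and 0.97), but not past the threshold without the untreated β replicate 1 (0.052) or the untreated δ replicate 1 (0.058) in the first comparison, nor on leaving out any one of the treated arrays (between 0.103 and 0.212) in the second.

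Some epithelial and mesenchymal genes also differed between the lines. Without doxycycline Krt14 (-3.74 ± 0.15) and Krt8 (-1.88 ± 0.11) were lower in the δ line and the mesenchymal receptor gene Pdgfrb was higher (2.68 ± 0.12), each by limma with adjusted p of 0.000261 or less. Of the 7 mesenchyme genes, however, 3 were above zero in that comparison, 2 passed higher and 0 lower, and the median was -0.007. The summed level of the thymic epithelial list lay between 6.77 and 6.997 on the β arrays and between 5.99 and 6.29 on the δ arrays. Within the δ line it was 6.29 and 6.24 with and 5.99 and 6.04 without doxycycline. Within the β line it was 6.84 and 6.895 with and 6.77 and 6.997 without the drug. Of the 8 tested genes of this list, 4 remained without the probes in deviant tiles. The thymocyte list lay between 6.08 and 6.39 on the β and between 4.19 and 4.99 on the δ arrays. Its lowest value, 4.19, was that of the untreated δ replicate 1, the array with most deviant tiles. Of its 7 tested genes, however, 4 were above zero between the untreated lines (median 0.24, lowest -3.86). With the drug 1 was (median -0.52), and 0 passed in either comparison. The macrophage list lay between 3.99 and 4.505 on the β and between 3.898 and 4.203 on the δ arrays. The part of these differences in the line comparisons of Fosl1, Jun and Fosb was not tested. The arrays read whole cultures, so a change in the share of cells that express a gene and one in its level per cell cannot be told apart.

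**Figure D5:**
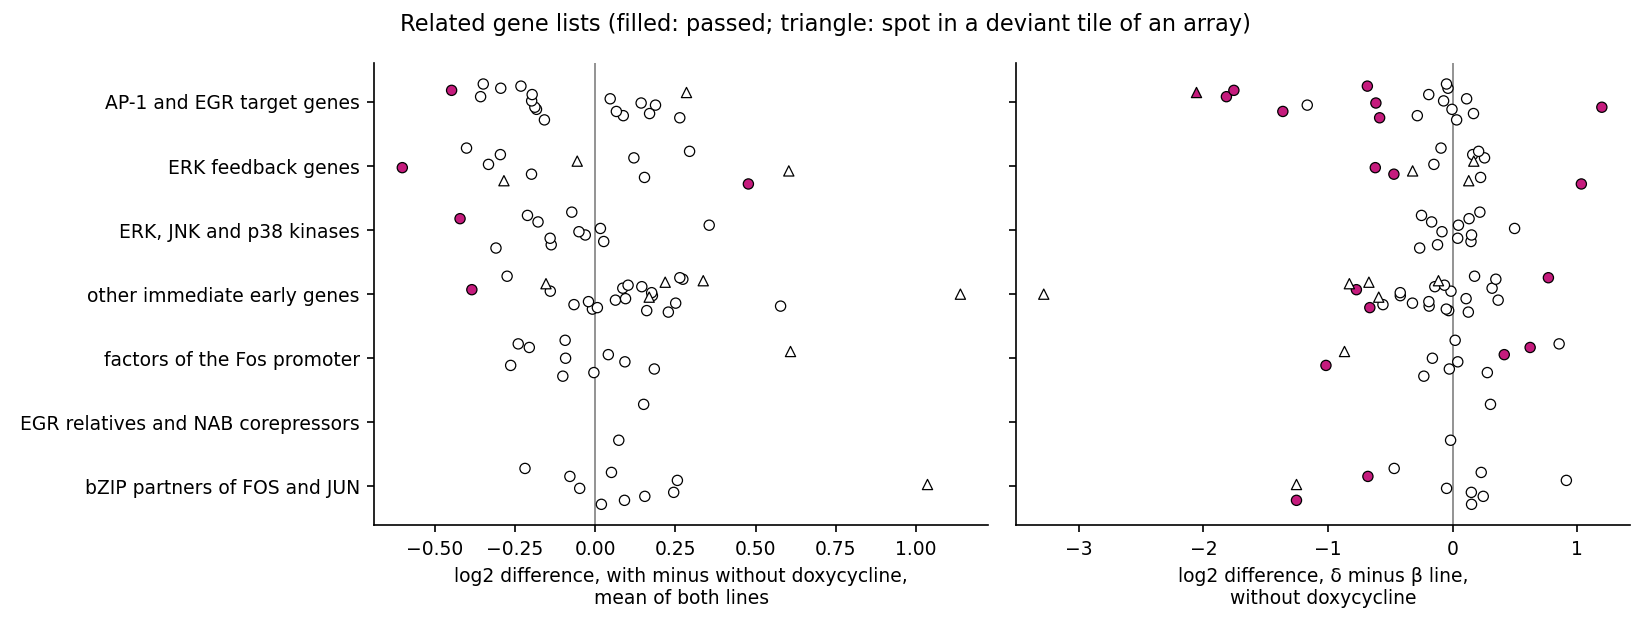
Log2 differences of the genes in 7 lists around the immediate early response, with doxycycline as the mean of both lines (left) and δ minus β without doxycycline (right). Filled symbols passed (limma adjusted p under 0.05) and triangles are genes whose spot lies in a deviant tile of an array; on the left the AP-1 and EGR targets lie around a median of -0.17, and on the right Plau, Spp1 and Hbegf lie between -1.82 and -1.36.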

How the data were processed

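RNA of the β and δ lines, with or without 24 h of doxycycline, was read on 8 one-colour Agilent arrays, 2 per group. Per the file headers, the authors used Feature Extraction version 11.5.1.1 (11.5.11 in the submitters' processing notes). The deposited values are linear spot intensity, with background subtraction and detrending done by the scanner software and no scaling across arrays. Its multiplicative detrending had a recorded size of 0 on 3 of 4 treated arrays (0.0811 on the treated β replicate 1) and of 0.0671 to 0.126 on untreated arrays. The array design is on mm9, per the file headers, and promoter coordinates are on GRCm38.p6.

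The deposited intensity was converted to log2, unflagged spots of a probe were averaged, and the 75th percentile of each array was subtracted. A RefSeq gene table named 32994 of 56605 probes by transcript accession, of which 32931 had an unflagged spot on every array. A probe entered if both arrays of any group read it well above background (27215 probes), and the brightest probe stood for its gene (19023 genes). A single limma 3.58.1 model (R 4.3.3, lmFit and eBayes) with a mean per group was fitted to all arrays, with 4 residual degrees of freedom, Benjamini-Hochberg adjustment over all genes and a threshold of 0.05. The fit was tested on simulated data for the β comparison.

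Alternatives were quantile normalization, median centring, normexp with an offset of 50, no filter or one on all arrays, means over probes, an intensity trend, a fit of only the arrays compared, a replicate block, removal of probes in deviant tiles and leaving out each array. Normexp ran on median spot and background signals, since the mean signal planned for it was not used here. Treating deviant tiles as missing was added after seeing the data. With 2 arrays a group, their number limits the precision.

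The members and lists were chosen with earlier results of these data known. Named are all 10 members, up to 3 genes per direction that passed from each related list, and the 3 genes most correlated with each member that passed. Genes whose spot lay in a deviant tile were left out after their values were seen, and Dusp1, Mapk8, Krt8, Krt14 and Pdgfrb were also chosen after their values were seen. One list gene that passed is not reported here.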

Additional observations from a re-analysis of the deposited data

Results flagged for a closer look

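Fosb, which encodes a FOS protein with an activation domain, had estimates of opposite sign for doxycycline in the β and the δ line, and their difference reached an unadjusted p under 0.05 only. Its log2 difference with the drug was 0.37 ± 0.22 (SE) in the β line, whose treated arrays were both above the untreated ones, and -0.62 ± 0.22 in the δ line, whose treated arrays were both below. The difference between these responses was -0.995 ± 0.31 (95% interval -1.74 to -0.25, unadjusted p = 0.0172 by limma). After adjustment over all 19023 genes it did not pass (limma adjusted p = 0.649, and between 0.228 and 0.958 over 18 alternatives). It remained negative in each of them, from -1.23 to -0.76. In the β line the treated replicate 2 (-1.62) barely exceeded the untreated replicate 2 (-1.64).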

How the results depend on the processing

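Fosl1 between the lines, with and without doxycycline, kept its direction and its call in 18 of 18 alternatives. Fos, Egr1 and Fosl1 with doxycycline over both lines kept their direction in all 18 and their call in 12, 11 and 10. Counts moved more than the members did, and the cause was not tested except where an alternative changes the genes or arrays that enter. The genes past the threshold in the β line (47 in the reported fit) numbered 14 with median centring, 13 with normexp, 2 with no filter, 333 with a filter on detection in every array, 240 with an intensity trend, 0 with only the arrays compared, 267 without the probes in deviant tiles and 283 with those tiles missing. Members among them, 0 in the reported fit, numbered 2 with that filter and 1 each with the trend, without the probes in deviant tiles and with those tiles missing. In the δ line the 14 genes became 7, 5, 803 (1 member), 44 and 25 with the first 5 of these, 31 with means over probes, 1 with only the arrays compared, and 54 and 59 with the tiles removed or missing. Over both lines the 593 genes became 182 with median centring, 211 with normexp, 2209 with no filter, 950 with the filter on every array, 921 with the trend, and 953 and 970 with the tiles removed or missing. The 1 gene whose response differed between the lines became 0 with normexp, the filter on every array or the trend, 2 with the tile probes removed and 4 with tiles missing. The untreated lines differed in 716 genes with only the arrays compared (2513 in the reported fit), and the treated lines in 1 member with median centring or no filter in place of 3. The split of higher and lower calls in the β line, 22 and 25, was 15 and 38 with quantile normalization, 4 and 10 with median centring and 3 and 10 with normexp. In the δ line it was 4 and 10, against 2 and 16 with quantile normalization and 0 and 5 with normexp.

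Leaving out 1 array at a time gave 0 to 245 genes and 0 to 2 members in the β line, 1 to 1621 and 0 to 2 in the δ line, 5 to 2273 and 0 to 3 over both lines, 1 to 1056 genes for the difference of responses, 1463 to 3761 genes between the untreated lines and 697 to 3253 genes with 1 to 3 members between the treated lines. The same removal turned the sign of small differences that had not passed. With doxycycline these ranged from -0.60 to 0.10 for Egr3 and from -0.0559 to 0.27 for Junb in the β line, from -0.0666 to 0.18 for Egr3, from -0.0749 to 0.17 for Jun and from -0.0735 to 0.057 for Jund in the δ line, and from -0.27 to 0.0789 for Egr3 over both. The difference of responses ranged from -0.38 to 0.22 for Egr1, from -0.13 to 0.29 for Egr2, from -0.0405 to 0.66 for Egr3, from -0.26 to 0.11 for Fos and from -0.083 to 0.25 for Junb. Between the untreated lines the ranges were -0.21 to 0.39 for Egr1, -0.0185 to 0.0416 for Fos, -0.12 to 0.35 for Fosb and -0.16 to 0.22 for Jund, and between the treated lines -0.17 to 0.18 for Egr1, -0.22 to 0.20 for Egr2, -0.37 to 0.32 for Egr3 and -0.25 to 0.13 for Fos.

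Other alternatives also turned signs of differences that had not passed. Normexp gave Egr3 0.16 in the β line and 0.11 over both lines, Jun -0.011 in the δ line, Egr2 -0.13 and Egr3 -0.10 for the difference of responses, and Fos -0.0546 and Egr2 0.054 between untreated lines. Quantile normalization gave Egr3 -0.0299 in the δ line and Egr2 0.1009 and Egr3 0.0998 between treated lines. Median centring gave Jund 0.0103 in the δ line and Fos 0.0228, Egr2 0.0696 and Egr3 0.0564 between treated lines. Means over probes, which take in the Jund spot in a dark tile, gave Jund 2.76 in the δ line, 2.59 for the difference of responses and -2.80 between untreated lines, and Fosl2 -0.0034 for the difference of responses. With that tile missing Jund was 0.0068 in the δ line and -0.13 between untreated lines. Of genes that had passed, Mrtfb alone turned among those named, to -7e-04 and -0.0383 as a mean over probes.

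The replicate numbers follow accession order, and within a line the same number is also the same slide column. No label pairs these arrays otherwise, and deviations of arrays with the same number had a correlation of 0.038 (β) and 0.037 (δ). A fit with the slide column within each line, and so the replicate number, as a block called 0 genes for β and 1 for δ. It called 1 over both lines (0 members) and 0 for the difference of responses. Under the block Fos and Egr1 over both lines had an adjusted p of 0.121 and Fosl1 one of 0.129. Egr3 lies near background, and with 2 arrays a group a difference had to be large against the spread to pass.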
